A study of Mus musculus with 40 samples.

Results

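The 10 genes described here are core components and direct outputs of the circadian clock: *Arntl* (also called Bmal1), *Clock*, *Npas2*, *Cry1*, *Nfil3*, *Per2*, *Per3*, *Nr1d1*, *Nr1d2* and *Dbp*. They were taken by name from a table of 15958 genes measured by RNA sequencing, all 10 were found there, and all 10 passed the filter on low values in each tissue. The libraries came from wild-type male C57BL/6 mice that were 8 weeks old when they had either a small bowel resection (SBR) of 50 to 60% or a sham operation. That extent is the one in the labels, and the study's general methods give a larger one. WUSTL0717, an agonist of the liver X receptor, was given daily at 30 mg/kg to part of the resected mice, and all other mice received vehicle; dosing began 3 weeks after surgery and lasted 7 weeks. No sham-operated mouse received the agonist. The duodenum and the ileum each had 3 sham vehicle, 4 SBR vehicle and 4 SBR WUSTL0717 libraries, and the liver had 5, 8 and 5. The comparisons ask what resection does to the clock genes, what the agonist does after resection, and whether duodenum and ileum differ. The study's methods place its procedures in the light phase, but the hour at which each mouse was killed is not given in the sources used here, so differences between groups in these genes cannot be told apart from differences in collection time.

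The clock is a loop of transcription factors that feed back on their own genes. The ARNTL protein pairs with CLOCK or with its relative NPAS2 and activates genes that carry E-box sequences, among them the *Per* and *Cry* genes, whose proteins then repress the pair, and *Nr1d1*, *Nr1d2* and *Dbp*. NR1D1 and NR1D2 (REV-ERB alpha and beta) repress *Arntl*, *Clock*, *Npas2*, *Cry1* and *Nfil3* through elements shared with the ROR activators, while DBP activates and NFIL3 represses genes with a D-box. In peripheral organs of mice the transcripts of *Arntl*, *Clock*, *Npas2*, *Cry1* and *Nfil3* are high around the end of the dark phase and early light phase, and those of *Nr1d1*, *Nr1d2*, *Dbp*, *Per3* and *Per2* are high later in the light phase or around dusk, and feeding time can shift the clock of liver and gut.

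On the GRCm38 assembly the members are on 8 chromosomes, and only *Arntl* and *Dbp* (chromosome 7) and *Npas2* and *Per2* (chromosome 1) share one. *Arntl* spans chr7:113207465-113314126 on the plus strand, *Clock* chr5:76209868-76304792 on the minus strand, *Npas2* chr1:39193731-39363236 on the plus strand, *Cry1* chr10:85131700-85185064 on the minus strand and *Nfil3* chr13:52967209-52981073 on the minus strand. *Per2* spans chr1:91415982-91459324, *Per3* chr4:151003652-151044665, *Nr1d1* chr11:98767932-98775333 and *Nr1d2* chr14:18204054-18239127, all on the minus strand, and *Dbp* spans chr7:45705088-45710203 on the plus strand. Some exon bases are shared with a gene on the other strand: 18.01% of those of *Dbp* with *Sphk2*, 8.55% of those of *Nr1d1* with *Thra* and 0.44% of those of *Arntl* with *Gm45355*. Whether reads were counted by strand is not given in the sources used here, so reads from these shared stretches may belong to either gene.

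Motifs through which the loop is known to act were looked for in the promoters of the members. RefSeq promoter windows (GRCm38.p6, 250 bases before to 50 after the annotated start) were found for 9 of the 10 members, all but *Per2*, and were searched on both strands for the E-box CACGTG, its variant CACGTT, the D-box TTANGTAA and the ROR element TNGGTCA. Over 27025 genes, 7.24% had the E-box in their first window, 4.77% the variant, 2.34% the D-box, 10.9% the ROR element and 23.1% at least 1 of the 4. At least 1 of these motifs was in the first window of 5 of the 9 members, and in none of those of *Clock*, *Npas2*, *Nr1d2* and *Dbp*. The 4 stretches shown lie upstream of the start, outside annotated exons, and are printed 5′ to 3′ on the strand of the gene with the motif in capitals. That of *Arntl* (chr7:113207245-113207310, plus strand) has 2 ROR elements, that of *Cry1* (chr10:85185089-85185153, minus strand) has the variant read on the other strand and then the E-box, that of *Nr1d1* (chr11:98775380-98775425, minus strand) has the variant read on the other strand, and that of *Per3* (chr4:151044757-151044890, minus strand) has 2 D-boxes and then a ROR element read on the other strand. In *Nfil3* a ROR element lay 12 bases before the start. Another window of *Arntl*, set on a different annotated start, held a further ROR element that began at base 31 after that start. A match describes letters in a window and is not evidence of binding, and a window without a match says nothing about the factor.
Arntl: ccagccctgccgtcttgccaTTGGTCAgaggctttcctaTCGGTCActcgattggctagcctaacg
Cry1: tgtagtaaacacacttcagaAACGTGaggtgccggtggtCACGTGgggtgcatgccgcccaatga
Nr1d1: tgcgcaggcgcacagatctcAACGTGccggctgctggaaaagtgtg
Per3: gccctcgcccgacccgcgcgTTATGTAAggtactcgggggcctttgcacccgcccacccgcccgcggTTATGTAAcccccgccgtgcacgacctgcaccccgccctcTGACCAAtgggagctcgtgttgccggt

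Values are the deposited log2 TPM, an abundance scaled for gene length and library size, after the authors' batch correction, in which the 22 intestinal libraries were Batch 1 and the 18 liver libraries Batch 2. Because the batches were the tissues, levels in the liver were not set against those in the intestine. The regional markers matched the labels within the intestine: duodenal libraries had *Pdx1*, a factor of the duodenum, at 3.89 to 4.81 and *Fabp6*, the ileal bile acid binding protein, at -1.69 to 0.53, and ileal libraries had them at -0.94 to 0.47 and at 5.87 to 8.54. After the correction *Alb*, the albumin of hepatocytes, ranged from 8.16 to 9.87 in the liver and from 8.47 to 12.7 in the ileum, so hepatocyte markers could not check the liver label. Read totals are unknown, and the TPM summed over the table ranged from 618212 to 863110 per library. A gene is said to rise or fall where its limma p, adjusted over all genes tested in that comparison by the Benjamini-Hochberg method, was under 0.05. Differences are log2 differences of group means with their standard error (SE), and exact p-values are from two-sided permutation tests between the groups, whose smallest possible value was 0.0286 in the intestine. The study counts its groups in mice, so the numbered libraries of a group were taken as separate mice.

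In the duodenum, resected mice on vehicle had higher *Dbp*, *Per2*, *Per3*, *Cry1* and *Nr1d2* values than every sham mouse and lower *Arntl* values than every sham mouse, but no member passed the adjusted threshold, and neither did any other gene. *Dbp*, the D-box activator, read 3.30, 2.96 and 3.54 in sham vehicle, 5.78, 5.96, 7.65 and 6.33 in SBR vehicle and 4.06, 4.15, 2.80 and 4.83 in SBR WUSTL0717. All 4 SBR vehicle libraries stood above all others, and the WUSTL0717 libraries lay on both sides of the sham range. The difference between SBR vehicle and sham was 3.16 (SE 0.55, limma adjusted p = 0.107; exact permutation p = 0.0286).

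The period genes encode the repressors that close the loop together with the cryptochromes. *Per2* read 1.93, 2.45 and 2.74 in sham vehicle, 5.07, 3.97, 4.53 and 3.61 in SBR vehicle and 4.90, 4.22, 3.03 and 3.44 in SBR WUSTL0717 duodenum. Both resected groups lay above every sham library and overlapped each other. *Per3* read 1.73, 2.12 and 2.34 in sham vehicle, 4.55, 3.43, 4.73 and 3.57 in SBR vehicle and 2.77, 3.79, 1.70 and 3.33 in SBR WUSTL0717. Here the lowest WUSTL0717 library lay below every sham library, while the other 3 were above. Against sham, SBR vehicle differed by 1.92 in *Per2* (SE 0.51, limma adjusted p = 0.245; exact permutation p = 0.0286) and by 2.01 in *Per3* (SE 0.52, limma adjusted p = 0.243; exact permutation p = 0.0286).

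*Arntl*, the activator of the loop and the counterpart of these genes in phase, read 2.10, 2.67 and 2.92 in sham vehicle duodenum, 1.37, 0.85, 0.62 and 0.51 in SBR vehicle and 1.94, 1.15, 1.90 and 1.15 in SBR WUSTL0717. Both resected groups lay below every sham library, and 2 of the 4 WUSTL0717 libraries were above every SBR vehicle library. SBR vehicle minus sham was -1.72 (SE 0.33, limma adjusted p = 0.125; exact permutation p = 0.0286). *Nfil3*, the D-box repressor, read 2.22, 4.29 and 4.79 in sham vehicle, 2.35, 1.74, 0.48 and 1.35 in SBR vehicle and 3.29, 1.77, 3.10 and 2.52 in SBR WUSTL0717. The first sham library lay within the SBR vehicle range, the other 2 far above it, and the difference was -2.29 (SE 0.63, limma adjusted p = 0.267; exact permutation p = 0.0571).

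*Cry1*, a repressor that is usually in phase with *Arntl*, read 1.46, 1.92 and 2.17 in sham vehicle duodenum, 3.68, 2.83, 2.78 and 2.75 in SBR vehicle and 2.46, 3.15, 1.51 and 3.20 in SBR WUSTL0717. It was thus on the side of *Dbp* and the period genes, above sham in every SBR vehicle library, with a difference of 1.16 (SE 0.44, limma adjusted p = 0.28; exact permutation p = 0.0286). *Nr1d2*, the REV-ERB beta repressor, read 2.94, 3.70 and 2.52 in sham vehicle, 5.40, 4.03, 6.07 and 4.10 in SBR vehicle and 3.83, 4.82, 3.60 and 3.95 in SBR WUSTL0717, a difference of SBR vehicle from sham of 1.85 (SE 0.55, limma adjusted p = 0.271; exact permutation p = 0.0857). The remaining 3 members overlapped between these groups. *Nr1d1* ranged from 4.81 to 6.18 in sham and from 4.68 to 8.65 in SBR vehicle, *Clock* from 2.46 to 3.62 and from 1.88 to 3.61, and *Npas2* from 1.58 to 2.38 and from 1.11 to 2.01.

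**Figure D1:**
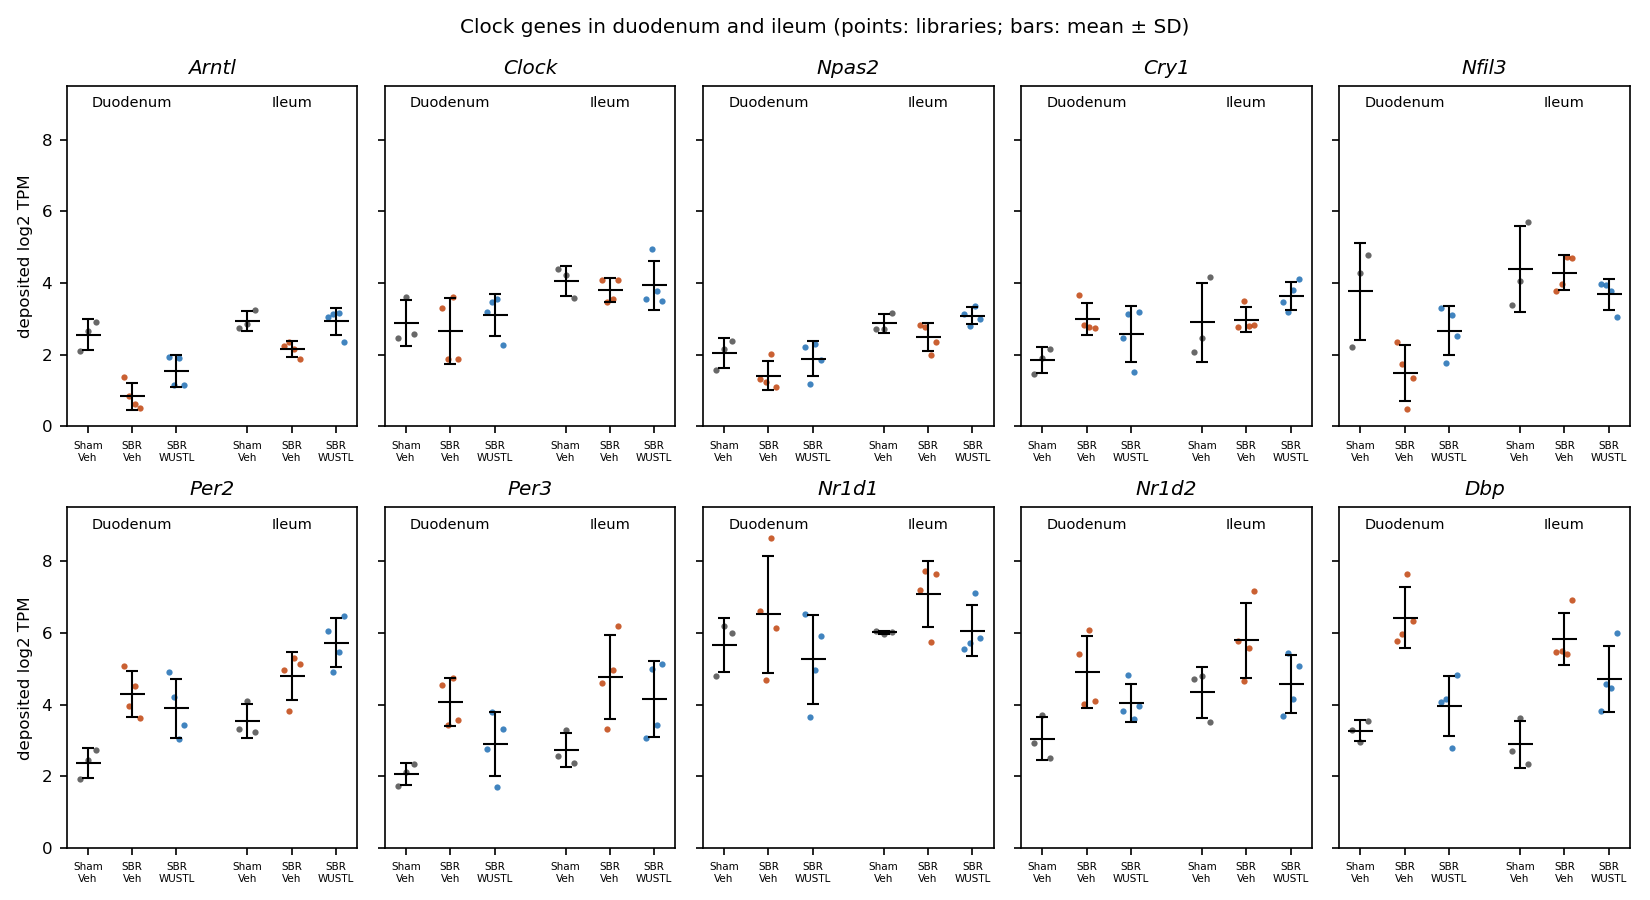
Log2 TPM (vertical axis) of each of the 10 clock genes in every duodenal and ileal library, by group; each point is 1 library and the bars are mean ± SD. The 4 SBR vehicle points of *Dbp* lie between 5.78 and 7.65 in the duodenum and between 5.43 and 6.91 in the ileum, above all sham points, which lie between 2.35 and 3.62.

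For SBR vehicle against sham in the duodenum, 0 of 10 members were called by limma, as were 0% of the 15093 genes tested. At an unadjusted p under 0.05 there were 7 of 10 members against 16.1% of all genes, and 6 of 10 members (5 higher, 1 lower) had groups that did not overlap against 9.65% of all genes. The median difference over all genes was -0.36, so the values of *Dbp*, *Per2*, *Per3*, *Cry1* and *Nr1d2* lay against the general direction. With library medians set equal, 4 members passed, as did 0.636% of all genes: *Arntl* at -1.32 (adjusted p = 0.0482), *Per2* at 2.33 (adjusted p = 0.0298), *Per3* at 2.41 (adjusted p = 0.0454) and *Dbp* at 3.57 (adjusted p = 0.0298). Without SBR vehicle library 1, *Arntl* (-1.90) and *Dbp* (3.38) passed, both with adjusted p = 0.0455, as did 3.92% of all genes. The summed level of 5 immune marker genes (log2 of summed TPM) was 7.13 to 7.56 in sham, 5.42 to 6.73 in SBR vehicle and 5.50 to 6.82 in SBR WUSTL0717, that of 5 enterocyte markers 7.23 to 8.11, 8.17 to 8.79 and 8.87 to 10.4, and that of 5 pancreatic acinar markers 6.33 to 10.3, 4.39 to 9.65 and 7.29 to 10.5. Their part in the clock gene values was not tested, and in bulk tissue fewer cells of a type and less RNA per cell cannot be told apart. Among the enterocyte markers *Fabp2* spanned 4.84 to 10.3 over the duodenal libraries and *Lct* 1.65 to 3.88. *Vil1* spanned 4.75 to 5.74, *Cdx2* 2.93 to 3.65 and *Alpi* 6.12 to 6.67. The median difference of the enterocyte list was 0.26 for SBR vehicle against sham and 0.24 for SBR WUSTL0717 against sham. *Sphk2*, which shares exon bases with *Dbp*, differed by -0.08 (adjusted p = 0.964).

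With the agonist after resection, *Dbp* was the member that differed most in the duodenum. Every WUSTL0717 library lay below every SBR vehicle library, and the difference was -2.47 (SE 0.51, limma adjusted p = 0.0911; exact permutation p = 0.0286), which missed the threshold. It passed when the filter on the mean level was raised to 3 (adjusted p = 0.0474), as did 0.776% of the 6447 genes left. *Per3* differed by -1.17 (adjusted p = 0.817) and *Arntl* by 0.70 (adjusted p = 0.902), with overlapping groups. By limma 0 of 10 members were called against 0.258% of all genes, 3 had an unadjusted p under 0.05 against 5.31%, and 1 had groups that did not overlap against 3.15%.

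The treated resected mice set against sham share both groups with the comparisons above. *Arntl* was lower by a difference of -1.03 (SE 0.33, limma adjusted p = 0.201) and *Per2* was higher by 1.52 (SE 0.51, limma adjusted p = 0.205), each without overlap. *Dbp* differed by 0.69 (adjusted p = 0.523) and overlapped. By limma 0 of 10 members were called against 0.802% of all genes, 2 had an unadjusted p under 0.05 against 16.9%, and 2 had groups that did not overlap against 18.4%, so the shares of members were near those of all genes here. With library medians set equal *Per2* passed, at 1.89 (adjusted p = 0.0195), as did 2.6% of all genes.

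In the ileum, *Dbp* rose after resection. It read 2.71, 3.62 and 2.35 in sham vehicle, 5.47, 5.48, 5.43 and 6.91 in SBR vehicle and 3.82, 4.56, 4.46 and 5.99 in SBR WUSTL0717. All SBR vehicle and all WUSTL0717 libraries stood above the sham libraries, and 1 WUSTL0717 library reached into the SBR vehicle range. SBR vehicle minus sham was 2.93 (SE 0.53, limma adjusted p = 0.0438; exact permutation p = 0.0286). The call was lost whichever of the 7 libraries was left out, with differences from 2.57 to 3.29 and adjusted p from 0.084 to 0.178.

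*Per3* read 2.56, 3.28 and 2.38 in sham vehicle ileum, 4.61, 3.32, 4.97 and 6.19 in SBR vehicle and 3.07, 5.00, 3.42 and 5.14 in SBR WUSTL0717. The lowest SBR vehicle library was just above the highest sham library, and the difference was 2.03 (SE 0.66, limma adjusted p = 0.312; exact permutation p = 0.0571). *Nr1d2* read 4.72, 4.79 and 3.52 in sham vehicle, 5.77, 4.66, 5.57 and 7.18 in SBR vehicle and 3.68, 5.43, 4.16 and 5.07 in SBR WUSTL0717. The groups overlapped, with a difference of 1.45 between SBR vehicle and sham (SE 0.59, limma adjusted p = 0.477). *Nr1d1*, whose protein represses *Arntl*, read 6.05, 5.97 and 6.04 in sham vehicle, 7.19, 7.72, 5.75 and 7.66 in SBR vehicle and 5.55, 5.71, 7.11 and 5.85 in SBR WUSTL0717. In 3 of 4 SBR vehicle libraries it was above sham and in the other below, a difference of 1.06 (SE 0.49, limma adjusted p = 0.595).

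*Arntl* read 2.74, 2.85 and 3.26 in sham vehicle ileum, 2.25, 2.37, 2.15 and 1.87 in SBR vehicle and 3.04, 3.14, 3.17 and 2.37 in SBR WUSTL0717. The SBR vehicle libraries lay below all sham libraries and none was above the lowest WUSTL0717 library. SBR vehicle minus sham was -0.79 (SE 0.27, limma adjusted p = 0.346; exact permutation p = 0.0286), and WUSTL0717 minus SBR vehicle was 0.77 (SE 0.25, limma adjusted p = 0.56; exact permutation p = 0.0286). *Npas2*, the partner of ARNTL in place of CLOCK, had a difference of 0.59 in the second comparison (SE 0.25, limma adjusted p = 0.704), with 2.83, 2.79, 2.00 and 2.36 in SBR vehicle and 3.15, 2.81, 3.37 and 3.00 in WUSTL0717.

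*Per2* rose in treated resected mice against sham. It read 3.31, 4.09 and 3.25 in sham vehicle ileum, 4.97, 3.82, 5.29 and 5.13 in SBR vehicle and 6.06, 4.90, 5.48 and 6.48 in SBR WUSTL0717. Every WUSTL0717 library was above every sham library, and 1 SBR vehicle library lay within the sham range. WUSTL0717 minus sham was 2.18 (SE 0.44, limma adjusted p = 0.0284; exact permutation p = 0.0286), SBR vehicle minus sham was 1.25 (SE 0.44, limma adjusted p = 0.382), and WUSTL0717 minus SBR vehicle was 0.93 (SE 0.41, limma adjusted p = 0.715). The call was lost in 6 of the 7 fits that left out a library, with differences from 1.93 to 2.45 and adjusted p up to 0.137. *Dbp* in the same comparison differed by 1.82 (SE 0.53, limma adjusted p = 0.113; exact permutation p = 0.0571).

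*Clock*, *Cry1* and *Nfil3* overlapped between all 3 ileal groups. *Clock* ranged from 3.58 to 4.39 in sham vehicle, from 3.46 to 4.09 in SBR vehicle and from 3.50 to 4.94 in SBR WUSTL0717. *Cry1* ranged from 2.09 to 4.16, from 2.78 to 3.50 and from 3.20 to 4.11, and *Nfil3* from 3.39 to 5.71, from 3.78 to 4.73 and from 3.06 to 3.97.

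For SBR vehicle against sham in the ileum, limma called 1 of 10 members (*Dbp*) against 0.349% of the 15772 genes tested, 5 had an unadjusted p under 0.05 against 8.46%, and 3 had groups that did not overlap (2 higher, 1 lower) against 9.5%. For WUSTL0717 against SBR vehicle it called 0 members against 0.0697% of all genes, 6 had an unadjusted p under 0.05 against 6.87%, and 1 had groups that did not overlap against 3.83%. Of those 6, *Arntl*, *Npas2* and *Per2* had positive differences, and *Nr1d1* (-1.03), *Nr1d2* (-1.21) and *Dbp* (-1.11) negative ones, with adjusted p from 0.56 to 0.72. For WUSTL0717 against sham it called 1 member (*Per2*) against 2.17% of all genes, 2 had an unadjusted p under 0.05 against 14.1%, and 2 had groups that did not overlap against 13.2%. These 3 comparisons share groups, so their values are given side by side only. The summed level of 3 ileal enterocyte markers was 7.28 to 7.49 in sham, 9.16 to 9.59 in SBR vehicle and 8.54 to 9.76 in SBR WUSTL0717, and that of 5 immune markers 8.17 to 9.62, 7.58 to 9.17 and 7.56 to 7.99. Their part in the clock gene values was not tested. *Sphk2* differed by -0.59 between SBR vehicle and sham (adjusted p = 0.885).

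**Figure D2:**
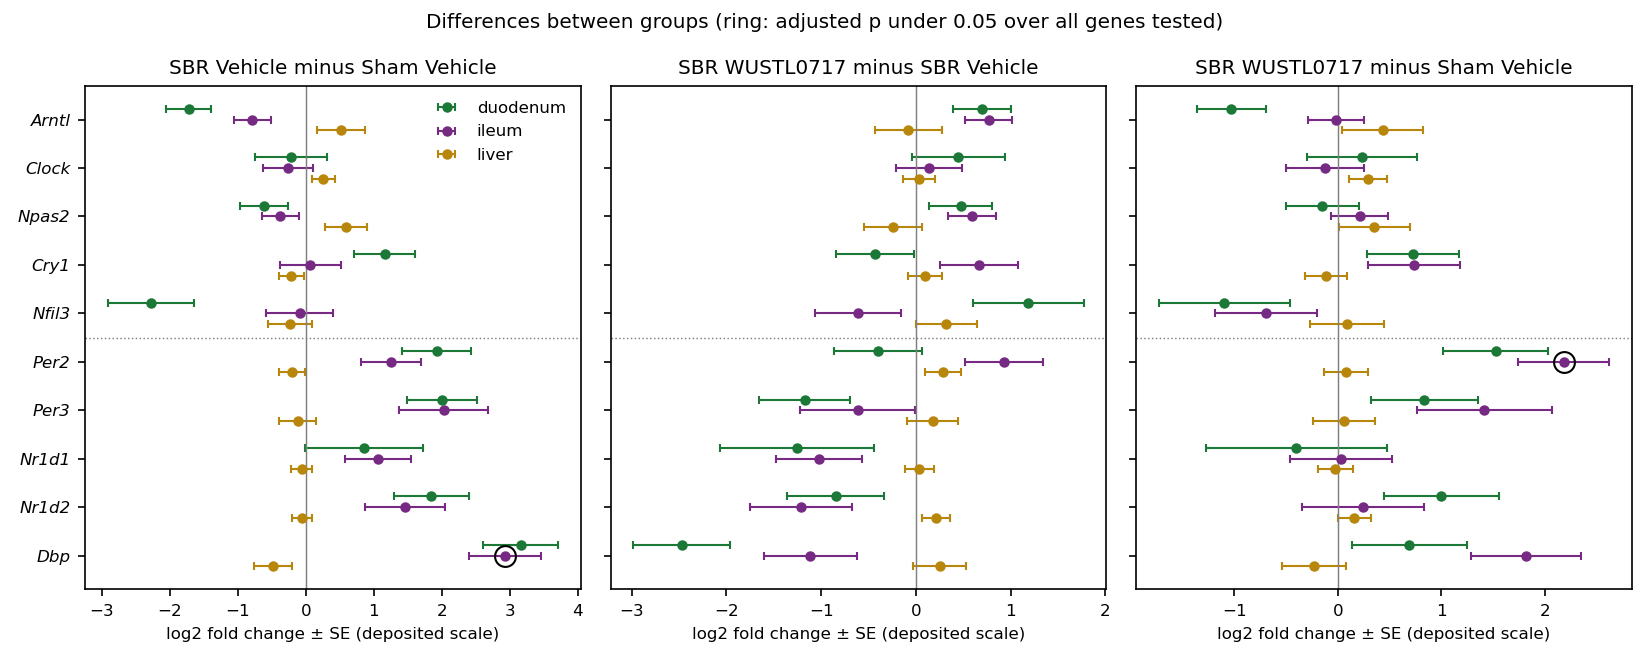
Log2 difference of group means with its standard error for each clock gene in the 3 comparisons within each tissue; ringed points passed the adjusted threshold. Only ileal *Dbp* (2.93, SBR vehicle minus sham) and ileal *Per2* (2.18, SBR WUSTL0717 minus sham) passed, and the liver values lie between -0.48 and 0.59.

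The regions of the intestine were compared in 1 fit of all 22 libraries. Averaged over the 3 groups, 8 of 10 members were lower in the duodenum than in the ileum, against 62% of all 15923 genes called lower, 71.6% called in either direction and a median difference over all genes of -0.83. The differences of the 8 ranged from -1.48 for *Nfil3* (adjusted p = 0.000534) to -0.70 for *Cry1* (adjusted p = 0.0194), and *Arntl* differed by -1.03 (adjusted p = 2.38e-05). *Nr1d1* (-0.57, adjusted p = 0.228) and *Dbp* (0.08, adjusted p = 0.832) did not pass. With 1 library left out, the *Per3* call stayed in 16 of 22 fits (limma adjusted p up to 0.0606). The *Cry1* call stayed in 21 of 22 (limma adjusted p up to 0.0627), and the other calls in all 22. Once library medians were set equal, of the 8 only *Nfil3* (-0.72) still passed, and *Dbp* passed as higher, at 0.83, where 23.7% of all genes were called lower and 22.4% higher. Whether duodenal and ileal libraries with the same number came from the same mouse is not given, and the fit treats them as separate.

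Whether resection acted differently in the regions was tested as an interaction. *Nfil3* had the largest value of the members, -2.20 (SE 0.83, adjusted p = 0.308): its duodenal difference was -2.29 and its ileal one -0.09. For *Arntl* it was -0.94 (SE 0.43, adjusted p = 0.353). By limma 0 of 10 members were called against 0.0754% of all genes, and 2 had an unadjusted p under 0.05 against 13.8%. For *Dbp* the interaction was 0.23 (SE 0.79, adjusted p = 0.911). For the agonist after resection the interaction was 1.80 for *Nfil3*, -1.33 for *Per2* and -1.36 for *Dbp* (each adjusted p = 1); 0 of 10 members were called against 0.0251% of all genes, and 2 (*Nfil3* and *Per2*) had an unadjusted p under 0.05 against 3.33%.

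In the liver no member was called in any comparison, while many other genes were. *Arntl* read 1.65, 1.74, 2.48, 2.52 and 1.66 in sham vehicle and 2.87, 2.08, 2.04, 2.02 and 3.21 in SBR WUSTL0717, and in SBR vehicle the lowest value was 1.62, the median 2.29 and the highest 4.45. The highest value belonged to SBR vehicle library 6, and the groups overlapped. *Npas2* read 1.98, 2.10, 2.10, 2.00 and 1.85 in sham vehicle and 2.60, 2.07, 2.21, 2.12 and 2.78 in SBR WUSTL0717, with a lowest value of 1.89, a median of 2.37 and a highest of 4.59 in SBR vehicle. The highest was again library 6. SBR vehicle minus sham was 0.51 for *Arntl* (SE 0.35, limma adjusted p = 0.251) and 0.59 for *Npas2* (SE 0.31, limma adjusted p = 0.132).

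*Dbp* read 6.05, 5.62, 5.57, 5.40 and 5.80 in sham vehicle liver and 5.29, 5.77, 5.53, 5.69 and 5.02 in SBR WUSTL0717, and in SBR vehicle its lowest value was 3.54, its median 5.48 and its highest 5.70. The lowest value was that of library 6, so in this library *Dbp* was at the bottom where *Arntl* and *Npas2* were at the top. *Nfil3* read 3.38, 4.24, 4.81, 4.51 and 3.14 in sham vehicle and 4.67, 3.86, 3.76, 3.76 and 4.47 in SBR WUSTL0717, with 3.07, 3.71 and 5.30 as lowest, median and highest in SBR vehicle. *Cry1* read 3.19, 3.46, 3.43, 3.61 and 3.21 in sham vehicle and 3.20, 3.33, 3.30, 3.24 and 3.24 in SBR WUSTL0717, with 2.76, 3.10 and 4.28 in SBR vehicle. Library 6 held the highest value of both genes.

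The other 5 members are given by their ranges. Over the 18 libraries *Per2* lay between 4.05 and 5.29, *Per3* between 3.05 and 4.76 and *Clock* between 3.25 and 4.51. *Nr1d1* lay between 6.28 and 7.40 and *Nr1d2* between 4.62 and 5.60. Library 6 had the lowest value of *Per2*, *Per3*, *Nr1d1* and *Nr1d2* and the highest of *Clock*.

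**Figure D3:**
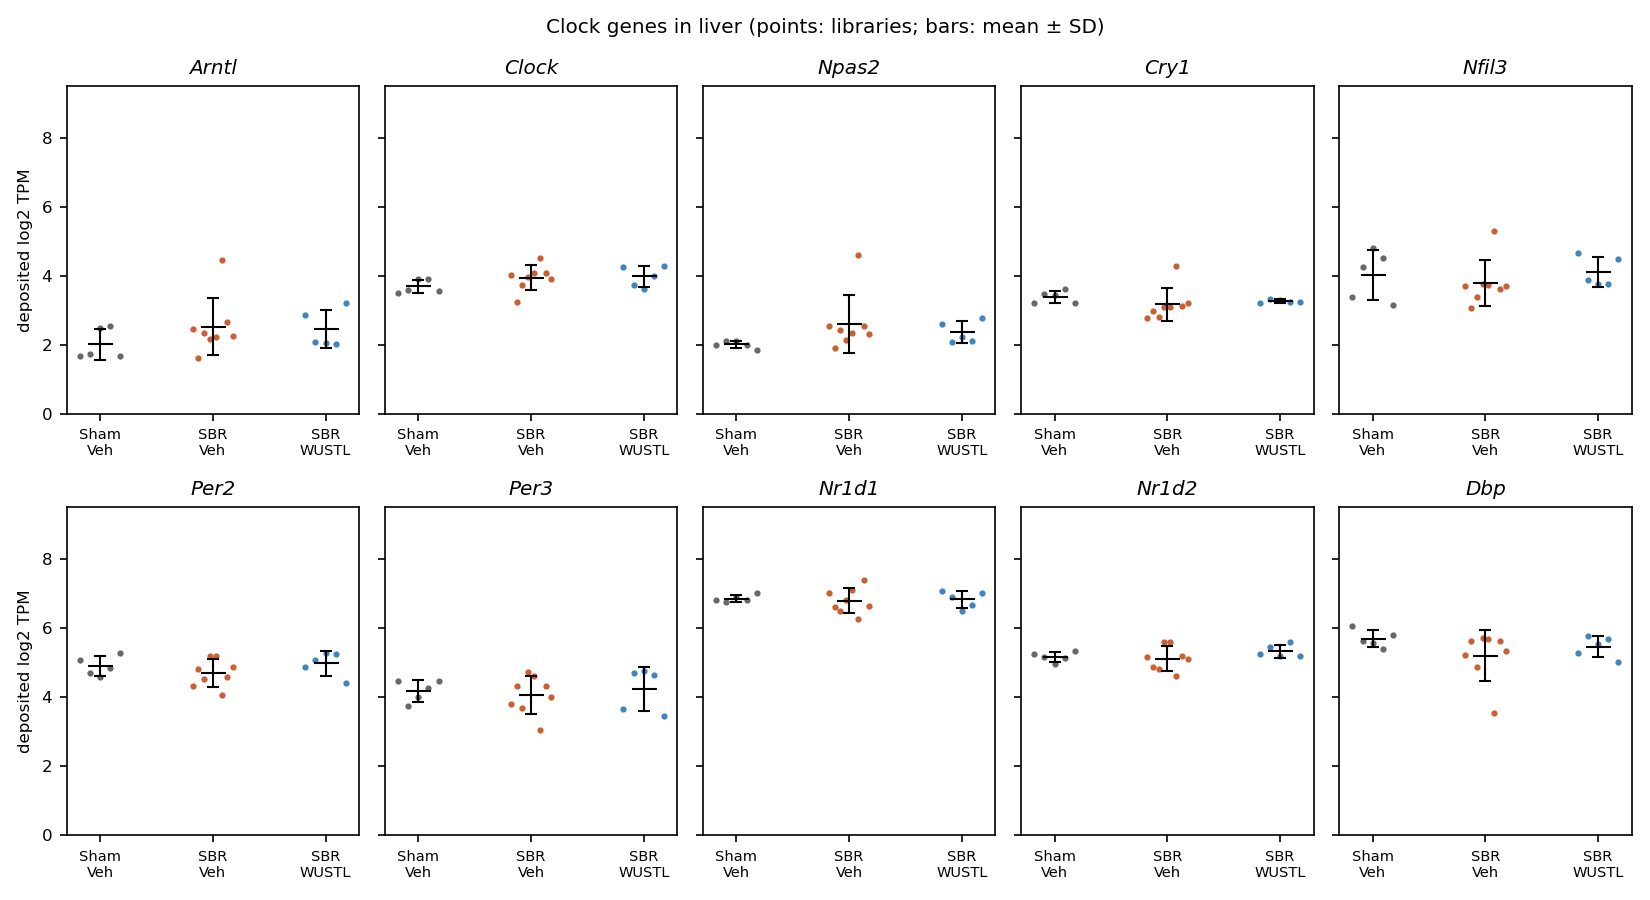
Log2 TPM (vertical axis) of each of the 10 clock genes in every liver library, by group; each point is 1 library and the bars are mean ± SD. SBR vehicle library 6 is at 4.45 for *Arntl*, 4.59 for *Npas2* and 3.54 for *Dbp*, apart from the other libraries, while the rest of the 3 groups overlap.

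For SBR vehicle against sham in the liver, limma called 0 of 10 members against 41.9% of the 15901 genes tested (37.4% higher, 4.47% lower), 0 had an unadjusted p under 0.05 against 50.2%, and 0 had groups that did not overlap against 17.2%. Differences ran from -0.48 (*Dbp*) to 0.59 (*Npas2*), where the median over all genes was 0.25, and adjusted p from 0.132 to 0.803. Relative to that shift, with library medians set equal, *Cry1* (-0.52, adjusted p = 0.0179), *Per2* (-0.51, adjusted p = 0.046), *Nr1d2* (-0.36, adjusted p = 0.0296) and *Dbp* (-0.79, adjusted p = 0.0411) passed as lower. At that setting 28.8% of all genes were called lower and 20.4% higher, 49.2% in all. Without SBR vehicle library 6, *Cry1* passed as lower on the original scale, at -0.37 (adjusted p = 0.00605), as did 4.24% of all genes, and the differences of *Arntl*, *Npas2* and *Dbp* were 0.24, 0.31 and -0.24. The summed level of 5 immune markers was 6.91 to 7.45 in sham, 7.64 to 8.58 in SBR vehicle and 7.68 to 8.30 in SBR WUSTL0717. That of 5 pancreatic acinar markers was 4.92 to 5.23 in sham, 4.53 to 11.6 (median 4.89) in SBR vehicle and 4.69 to 4.97 in SBR WUSTL0717. The 11.6 was library 7, and the next highest of its group was 5.10. Without library 7 limma called 0 of 10 members in this comparison. The part of the immune markers in the values was not tested. *Thra*, which shares exon bases with *Nr1d1*, rose by 0.52 for SBR vehicle against sham (limma adjusted p = 0.000403), where *Nr1d1* differed by -0.06. For SBR WUSTL0717 against sham *Thra* rose by 0.31 (limma adjusted p = 0.0452).

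With the agonist after resection the liver differences ran from -0.24 (*Npas2*) to 0.32 (*Nfil3*), with adjusted p from 0.503 to 0.958; limma called 0 of 10 members against 4.1% of all genes, 0 had an unadjusted p under 0.05 against 17.2%, and 0 had groups that did not overlap against 1.54%. Without SBR vehicle library 6 the difference of *Npas2* was 0.05, the values ran from -0.04 (*Nr1d1*) to 0.54 (*Nfil3*), and 0 of 10 passed. Treated resected mice differed from sham by -0.23 (*Dbp*) to 0.43 (*Arntl*), with adjusted p from 0.221 to 0.919. There limma called 0 of 10 members against 28.8% of all genes, 0 had an unadjusted p under 0.05 against 43.9%, and 0 had groups that did not overlap against 28.1%. With library medians set equal 0 of 10 members passed in either comparison, while the calls over all genes went from 1.44% higher and 2.66% lower to 11.5% and 8.19% with the agonist after resection, and from 27.9% and 0.906% to 10.7% and 8.93% against sham. *Npas2* had the smallest exact permutation p of the members against sham, 0.0317, where 0.00794 was the smallest possible.

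How much the members varied between liver libraries of 1 group depended on SBR vehicle library 6. Over all 18 libraries the pooled SD within groups was 0.68 for *Arntl*, at the 97.1 percentile of the 15901 tested genes, whose median SD was 0.234. *Nfil3* (SD 0.63) was at the 96.0, *Npas2* (0.60) at the 95.3, *Dbp* (0.54) at the 93.9 and *Per3* (0.52) at the 93.4 percentile. Without library 6, an alternative chosen after seeing the data, *Arntl* (SD 0.44), *Per3* (0.46) and *Nfil3* (0.48) were still at the 90.0 to 91.9 percentile, while *Npas2* (0.24) was at the 51.2 and *Dbp* (0.29) at the 72.8. *Cry1* went from 0.34, at the 80.9 percentile, to 0.15, at the 4.72. In the intestine *Arntl* was among the steadier genes, at the 15.6 percentile in the duodenum and the 14.01 in the ileum, while *Nr1d1* was at the 97.9 percentile in the duodenum and *Per3* at the 95.0 in the ileum. Duodenal *Arntl* was low, with a mean of 0.84 in SBR vehicle, and low values are less certain.

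A phase contrast sets the members against each other within a library. It is the mean of *Per2*, *Per3*, *Nr1d1*, *Nr1d2* and *Dbp* minus the mean of *Arntl*, *Clock*, *Npas2*, *Cry1* and *Nfil3*, each first standardized over the libraries of its tissue, and it is given as a description without a test. In the duodenum it was -1.21 ± 0.42 (SD, n = 3) in sham vehicle, 1.22 ± 0.47 (n = 4) in SBR vehicle and -0.32 ± 0.58 (n = 4) in SBR WUSTL0717. In the ileum it was -1.11 ± 1.02, 1.06 ± 0.64 and -0.23 ± 0.69 with the same numbers. The SBR vehicle libraries, at 0.84 to 1.86 in the duodenum, stood above all others there. In the ileum they lay at 0.37 to 1.91, and 1 WUSTL0717 library, at 0.80, came among them. In the liver it was 0.40 ± 1.01 (n = 5), -0.32 ± 2.07 (n = 8) and 0.10 ± 1.03 (n = 5), and SBR vehicle library 6 was at -5.20 while the other 7 of its group lay between -0.53 and 1.08. Without that library the liver difference between SBR vehicle and sham was -0.02 in place of -0.72.

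**Figure D4:**
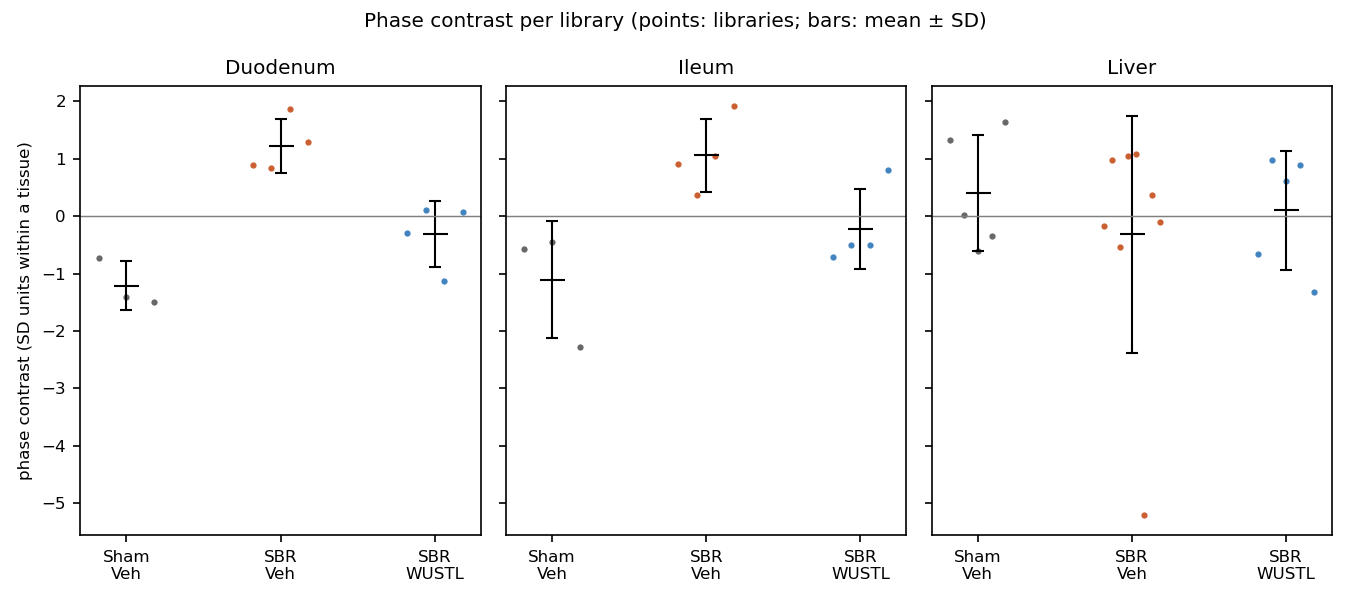
Phase contrast (standardized units, light phase members minus the others) of each library by group in duodenum, ileum and liver; points are libraries and bars are mean ± SD. SBR vehicle means are 1.22 in the duodenum and 1.06 in the ileum against -1.21 and -1.11 in sham vehicle, and 1 liver library lies at -5.20.

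Whether the members vary together between libraries of 1 group was examined by setting *Arntl* against each of the other 9 genes in each tissue, with group means subtracted, which gave 27 relations. The liver held most of the relations that passed. Over its 18 libraries *Npas2* had Pearson r = 0.92 (permutation p = 4e-05, adjusted p = 0.00108; Spearman rho = 0.75, permutation p = 3e-05), *Nfil3* r = 0.89 (permutation p = 0.00013, adjusted p = 0.00175; rho = 0.79, permutation p = 0.00028) and *Clock* r = 0.85 (permutation p = 0.00041, adjusted p = 0.00248; rho = 0.85, permutation p = 0.00016). On the other side were *Dbp* with r = -0.88 (permutation p = 0.00038, adjusted p = 0.00248; rho = -0.71, permutation p = 0.00053), *Per2* with r = -0.75 (permutation p = 0.00046, adjusted p = 0.00248; rho = -0.74, permutation p = 0.00071) and *Per3* with r = -0.74 (permutation p = 0.00248, adjusted p = 0.00957; rho = -0.75, permutation p = 0.00215). The relations that passed were thus positive for *Npas2*, *Nfil3* and *Clock* and negative for *Dbp* and the period genes. The other 3 did not pass: *Cry1* had r = 0.76 (adjusted permutation p = 0.0871; rho = 0.32), *Nr1d2* r = -0.52 (adjusted permutation p = 0.135; rho = -0.40) and *Nr1d1* r = -0.11 (adjusted permutation p = 0.796; rho = 0.26).

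Part of this rested on single libraries. Without the 2 liver libraries farthest from the median of *Arntl*, SBR vehicle 6 and SBR WUSTL0717 5, *Clock* (r = 0.84, adjusted permutation p = 0.0154), *Npas2* (r = 0.78, adjusted permutation p = 0.0154) and *Nfil3* (r = 0.80, adjusted permutation p = 0.0172) still passed by Pearson r. By Spearman rho *Clock* (0.83) and *Npas2* (0.70, both adjusted permutation p = 0.0308) did too, and *Nfil3* (0.74, adjusted permutation p = 0.0724) did not. *Dbp* (r = -0.55), *Per2* (r = -0.55, both adjusted permutation p = 0.155) and *Per3* (r = -0.48, adjusted permutation p = 0.205) no longer did. Among the relations that had not passed, *Cry1* was then at r = 0.25, *Nr1d2* at -0.14 and *Nr1d1* at 0.49 (adjusted permutation p = 0.475, 0.717 and 0.168). In the duodenum *Nfil3* passed over 11 libraries (r = 0.86, permutation p = 0.0022, adjusted p = 0.00957; rho = 0.86, permutation p = 0.0036), and it did not without its 2 farthest libraries (r = 0.77, adjusted permutation p = 0.168). In the ileum 0 of 9 relations passed, and the strongest was *Dbp* (r = -0.81, permutation p = 0.0266, adjusted p = 0.0871; rho = -0.62, permutation p = 0.0951). Without the 2 farthest ileal libraries, SBR vehicle 4 and SBR WUSTL0717 4, *Dbp* had r = -0.31 (adjusted permutation p = 0.799), and the strongest was *Cry1* at r = 0.94 (adjusted permutation p = 0.155).

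**Figure D5:**
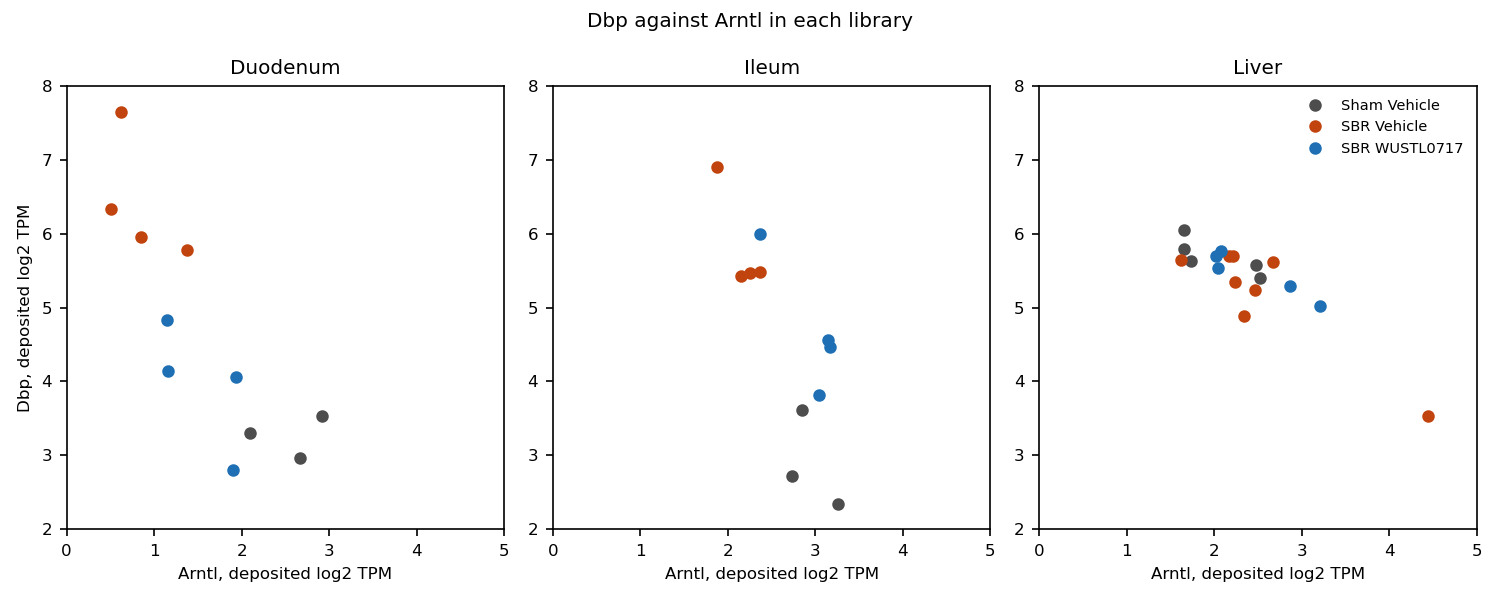
*Dbp* against *Arntl* (both log2 TPM) in each library of the 3 tissues, coloured by group. In the duodenum the SBR vehicle points lie at *Dbp* 5.78 to 7.65 and *Arntl* 0.51 to 1.37, above and to the left of the sham points, and the liver point at 4.45 and 3.54 is SBR vehicle library 6.

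Genes outside the 10 were ranked by their Pearson r with the phase contrast, group means subtracted, as a description with no p. In the liver (18 libraries) the highest were *Tef* (0.88), which encodes a D-box activator related to DBP, *Slc5a6* (0.85), *Gm45909* (0.85), *Upp2* (0.83) and *Ciart* (0.83), a repressor of the clock. Among the lowest there were *Chka* (-0.87), *Gm24777* (-0.84), *Rnf144a* (-0.84) and *Klf4* (-0.81). The phase contrast of liver SBR vehicle library 6 was -5.20, where the mean of its group was -0.32. The liver ranking thus leans on that library, and it was not repeated without it. In the duodenum (11 libraries) the highest were *Gm5846* (0.92), *Gm22343* (0.91), *Gm37784* (0.86), *Gm18936* (0.83) and *Gm5578* (0.83), and the lowest *Selenof* (-0.96), *Ebpl* (-0.94), *Abhd11os* (-0.94), *Tmem120a* (-0.93) and *Aurkaip1* (-0.93). In the ileum (11 libraries) the highest were *Me2* (0.92), *Gm24967* (0.92), *Sdsl* (0.91), *Cd302* (0.90) and *Igkv4-70* (0.87), and the lowest *4930573C15Rik* (-0.94), *Slc35c1* (-0.93), *Prkx* (-0.91), *Zfand2a* (-0.89) and *Gm18256* (-0.88). *Tef* ranked 65 in the duodenum (r = 0.70) and 74 in the ileum (r = 0.76). Other genes of the clock and its outputs had values of both signs. Duodenal r was 0.54 for *Cry2* and 0.53 for *Elovl3*, but -0.70 for *Upp2* and -0.68 for *Noct*. Ileal r was 0.61 for *Wee1* and 0.57 for *Usp2*, but -0.83 for *Noct* and -0.64 for *Per1*. Hepatic r was 0.72 for *Wee1* and -0.57 for *Elovl3*.

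Of 15 other clock genes, 11 were in the table. For SBR vehicle against sham in the duodenum limma called 0 of them, and 3 of 11 had an unadjusted p under 0.05, all higher, against 3.41% of all genes higher: *Tef* (3.06, adjusted p = 0.0822), *Cry2* (1.85, adjusted p = 0.194) and *Ciart* (2.02, adjusted p = 0.253). *Tef* was 3.14 ± 0.10 (SD, n = 3) in sham vehicle, 6.20 ± 0.64 (n = 4) in SBR vehicle and 4.68 ± 0.54 (n = 4) in SBR WUSTL0717 duodenum, an order of groups that *Dbp* also had (3.27 ± 0.29, 6.43 ± 0.85 and 3.96 ± 0.85). In the ileum 0 were called for SBR vehicle against sham and 4 of 11 had an unadjusted p under 0.05, all higher, against 5.52% of all genes higher, with *Tef* at 2.29 (adjusted p = 0.0882). With the agonist after resection limma called 0 of the 11 in either region. In the duodenum 4 of 11 had an unadjusted p under 0.05, all lower, against 1.65% of all genes lower: *Ciart* (-1.94), *Tef* (-1.52), *Cry2* (-1.34) and *Hlf* (-1.30). In the ileum there was 1 higher and 1 lower, against 6.87% of all genes. *Bhlhe40*, a repressor of E-box genes, rose in treated resected ileum against sham (2.96, adjusted p = 0.00759), the 1 of 11 called there, against 1.66% of all genes called higher.

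In the liver 5 of the 11 (2 higher, 3 lower) were called for SBR vehicle against sham, where 37.4% of all genes were called higher and 4.47% lower. *Csnk1d* (0.47, adjusted p = 0.00166) and *Csnk1e* (0.93, adjusted p = 1.28e-05), kinases of the period proteins, rose, and the D-box activators *Hlf* (-0.55, adjusted p = 0.00299) and *Tef* (-0.48, adjusted p = 0.0494) fell. *Tef* was 5.79 ± 0.15 (SD, n = 5) in sham, 5.31 ± 0.46 (n = 8) in SBR vehicle and 5.69 ± 0.30 (n = 5) in SBR WUSTL0717. *Csnk1d* (0.44, adjusted p = 0.0114) and *Csnk1e* (0.71, adjusted p = 0.00195) also rose in treated resected mice against sham, 2 of 11 against 27.9% of all genes called higher. With the agonist after resection 0 were called, and 1 of 11 had an unadjusted p under 0.05, higher, against 8.5% of all genes higher.

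All 10 listed output genes of the clock were in the table. In the liver 4 of them fell after resection and 0 rose, where 4.47% of all genes were called lower and 37.4% higher: *Elovl3*, a fatty acid elongase (-3.71, adjusted p = 1.26e-07), *Upp2* (-1.36, adjusted p = 0.00298), *Usp2* (-0.74, adjusted p = 0.0402) and *Noct* (-0.64, adjusted p = 0.00998). With library medians set equal, 28.8% of all genes were called lower and 20.4% higher. Neither these output genes nor the other lists were counted at that setting. With the agonist *Elovl3* (2.14, adjusted p = 0.0041) and *Noct* (0.68, adjusted p = 0.0454) rose against SBR vehicle, 2 of 10 against 1.44% of all genes called higher, and *Elovl3* remained lower than in sham (-1.58, adjusted p = 0.00545), the 1 of 10 called there, against 0.906% of all genes called lower. In the intestine *Por*, the P450 reductase, rose in treated resected mice against sham, by 3.05 in the duodenum (adjusted p = 0.00624) and by 2.26 in the ileum (adjusted p = 0.0167), where *Klf10* also rose (1.82, adjusted p = 0.0478). In the duodenum that was 1 of 10 against 0.749% of all genes called higher, and in the ileum 2 of 10 against 1.66%. None of the 10 was called in the other comparisons of groups within an intestinal region by limma, and 3 of them had an unadjusted p under 0.05 in each. Such a p was found for 16.1% of the genes tested in duodenal and 8.46% of those in ileal libraries for SBR vehicle against sham, and 5.31% and 6.87% for the agonist after resection.

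Since feeding, glucocorticoids and body temperature set the phase of peripheral clocks, lists of genes that respond to each were counted in the same comparisons, and their part in the clock gene values was not tested. In the liver after resection the fasting-induced genes *Fgf21* (2.64, adjusted p = 5.12e-07) and *Pdk4* (2.09, adjusted p = 0.00013) rose and *Pck1* fell (-0.76, adjusted p = 0.0111), out of 8. Of 6 glucocorticoid-responsive genes *Mt1* (2.52, adjusted p = 5.94e-06), *Mt2* (1.51, adjusted p = 0.00108) and *Sgk1* (1.18, adjusted p = 0.000179) rose and *Tsc22d3* fell (-0.70, adjusted p = 0.0161), and of 6 temperature-responsive genes *Rbm3* rose (0.77, adjusted p = 0.000453). The lists thus had 2 of 8, 3 of 6 and 1 of 6 called higher against 37.4% of all genes, and 1 of 8, 1 of 6 and 0 of 6 called lower against 4.47%. In treated resected liver against sham *Cpt1a* (0.57), *Fgf21* (2.47), *Pdk4* (1.60), *Mt1* (1.59), *Sgk1* (0.85), *Hsp90aa1* (0.71) and *Rbm3* (0.53) rose, which were 3 of 8 fasting-induced, 2 of 6 glucocorticoid-responsive and 2 of 6 temperature-responsive genes against 27.9% of all genes called higher. With the agonist after resection limma called 0 of these liver genes, and at an unadjusted p under 0.05 there were 3 higher fasting-induced, 1 higher fed-responsive, 3 higher temperature-responsive and 2 lower glucocorticoid-responsive genes, of 8, 4, 6 and 6, where 8.5% of all genes were higher and 8.72% lower at such a p.

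In the intestine none of these genes was called for SBR vehicle against sham by limma; at an unadjusted p under 0.05 there were 3 higher glucocorticoid-responsive genes of 6 in each region, 1 higher and 1 lower fasting-induced gene of 8 in the duodenum, 2 higher and 2 lower in the ileum, 1 lower fed-responsive gene of 3 in the duodenum and 0 of 4 in the ileum, and 0 temperature-responsive genes of 6 in either. Such a p was found for 16.1% of all genes tested in duodenal and for 8.46% in ileal libraries. For the agonist after resection, 5 of the 8 fasting-induced genes in the duodenum had an unadjusted p under 0.05, all higher, against 3.66% of all genes higher, and the median difference of the list was 1.82 where that of all genes was 0.04. By limma 1 of the 8 was called there, against 0.258% of all genes. The 3 fed-responsive genes tested there also had positive differences, with a median of 0.60, 1 unadjusted p under 0.05 and 0 called. Of the 6 glucocorticoid-responsive genes 1 was higher and of the 6 temperature-responsive genes 1 was lower at such a p. In the ileum 2 of the 8 fasting-induced genes (median 0.46), 3 of the 4 fed-responsive genes (median 1.86) and 1 of the 6 glucocorticoid-responsive genes (median 0.04) had such a p and were higher, and of the 6 temperature-responsive genes (median 1.15) 2 were higher and 1 lower. Of all genes there 4.12% were higher and 2.75% lower at such a p. With the agonist after resection *Srebf1*, a regulator of fatty acid synthesis and a known target of the liver X receptor, rose in the ileum (3.39, adjusted p = 0.0427), the 1 of 4 fed-responsive genes called there against 0.0697% of all genes. Against sham the treated groups had higher *Mt1* in the duodenum (3.38, adjusted p = 0.0205), where 0.749% of all genes were called higher, and higher *Srebf1* (3.25, adjusted p = 0.0151), *Fasn* (3.24, adjusted p = 0.03) and *Pdk4* (2.79, adjusted p = 0.0374) in the ileum, where 1.66% were.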

How the data were processed

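The authors made 1 table of log2 TPM for 15958 genes in 40 libraries. Per the submitters' processing notes, reads were aligned to GRCm38 with STAR and counted with featureCounts of Subread; per the study's methods batch effects in the values were then corrected with ComBat. Per the labels, the intestinal libraries were Batch 1 and the liver libraries Batch 2, so a gene's level and scale in one tissue can depend on the other. Of the deposited log2 values, 2752 of 638320 are below 0. No read counts came with them, so depth is unknown and no counting interval is given; low values are less certain.

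Within each tissue, genes whose mean level reached a log2 TPM of 1 were fitted with limma 3.58.1 (R 4.3.3; variance trend, 3 groups in 1 fit, Benjamini-Hochberg over all genes, threshold 0.05), and the 22 intestinal libraries in a fit of 6 groups for region comparisons. Exact permutation tests (90) covered single members, and 100000 permutations within groups the 27 relations. The fits were tested on simulated data. Python 3.11.15, numpy 2.4.6, pandas 2.3.3, scipy 1.17.1 and matplotlib 3.10.9 were used. The smallest exact p was 0.000777 in the liver for 8 against 5 libraries. Alternatives were the pseudocount, the filter, centred library medians, library weights, an unmoderated test, a replicate block and leaving out each library; the liver SDs without SBR vehicle library 6 were added after seeing the data. Members, lists and tests were chosen with earlier results of these data known. All 10 members are named; of each list, the genes called in a comparison (at most 6); and the 5 highest and 5 lowest correlates of the phase contrast per tissue. None of the 3 listed adipocyte markers was found in the table. Some genes that this rule would name are not reported here.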

Additional observations from a re-analysis of the deposited data

Results flagged for a closer look

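In groups of 4 to 10 libraries, 9 of 70 combinations of a member and a group had a highest or lowest library whose gap to the next was beyond Dixon's 95% limit; chance gives about 1 in 20. Of these, 5 were the same liver library, SBR vehicle 6, with *Arntl* at 4.45, *Npas2* at 4.59, *Cry1* at 4.28, *Nfil3* at 5.30 and *Dbp* at 3.54, the last being the lowest of its group and the others the highest. The other 4 were in the intestine: *Arntl* at 2.37 in ileal SBR WUSTL0717 library 4, *Cry1* at 3.50 in ileal SBR vehicle library 2, *Cry1* at 3.68 in duodenal SBR vehicle library 1 and *Dbp* at 6.91 in ileal SBR vehicle library 4.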

How the results depend on the processing

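Counts of members called depended on the setting. With library medians centred they were 4 for SBR vehicle against sham in the duodenum and 4 in the liver, 1 for SBR WUSTL0717 against sham in the duodenum and 2 for duodenum against ileum, where *Cry1* reversed to 0.0609. With library weights they were 5 (*Arntl*, *Nfil3*, *Per2*, *Per3*, *Dbp*), 3 (*Arntl*, *Clock*, *Npas2*) and 1 (*Arntl*) for the first 3 of these comparisons, 1 (*Dbp*) for WUSTL0717 against SBR vehicle in the duodenum, 1 (*Clock*) for WUSTL0717 against sham in the liver and 1 (*Nfil3*) for the SBR interaction; of all genes, weights called 16.5%, 65.8%, 7.45%, 0.563%, 52.7% and 12.5% in these 6 comparisons. A filter at 3 gave 1 (*Dbp*) for WUSTL0717 against SBR vehicle in the duodenum. It gave 5 for duodenum against ileum because *Arntl*, *Npas2* and *Cry1* were no longer tested; the other 5 calls stayed. Ileal *Dbp* was lost (0 called) with a pseudocount of 5 and in the unmoderated test, and ileal *Per2* (0 called) in the unmoderated test and with the replicate block. Leaving out 1 library gave 0 to 2 in the duodenum and 0 to 1 in the liver for SBR vehicle against sham, and in the ileum 0 to 0 for that comparison and 0 to 1 for WUSTL0717 against sham; in the liver the call was *Clock* without SBR vehicle 2 (56.7% of all genes called) and *Cry1* without SBR vehicle 6 (37.4%). Among the *Arntl* relations 3 passed without the 2 farthest libraries and 16 without subtracting group means. The phase contrast by medians moved to 3.01 (SBR vehicle minus sham) and 1.41 (WUSTL0717 minus sham) in the duodenum. The cause of the other shifts was not tested. Of 37 member differences with an unadjusted p under 0.05, 1 changed sign in any refit; of the other 83, 39 did.

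Over all genes, SBR vehicle against sham in the duodenum gave 0 calls, 96 with centred medians, 2497 with weights and 589 without SBR vehicle 1. Within a tissue, same-numbered libraries of different groups were not paired. In 35 such pairs the correlation of deviations ran from -0.32 to 0.329, and 6 were over 0.1. Same-numbered duodenal and ileal libraries correlated over all genes at 0.358, 0.069 and 0.446 in sham vehicle. The values were 0.131, -0.002, -0.136 and 0.085 in SBR vehicle and -0.081, 0.322, -0.067 and 0.205 in SBR WUSTL0717. Differently numbered libraries of a group ran from -0.455 to 0.236, and the region fits treated all as separate. The replicate block called 1 member (*Cry1*) for SBR vehicle against sham in the liver, where it called 35.1% of all genes. For WUSTL0717 against sham in the ileum it called 0 members and 0.558% of all genes.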
